A study of Homo sapiens with 6 samples.

Results

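Intestinal epithelium is built and maintained by a small set of DNA-binding proteins, and 8 of them were followed here in a human colorectal carcinoma line, HCT116: HNF4A, HNF4G, CDX1, CDX2, GATA6, KLF4, KLF5 and ELF3. They were chosen by name, with earlier results of these data known, and all 8 had a row among the 15977 genes of the joined count tables. The study measured poly(A) RNA in 6 libraries that formed 3 groups of 2. KO1 cells were infected with lentiCRISPR v2, a lentivirus encoding Cas9 together with a guide RNA, here a first guide against MUC3A, which is a membrane-bound mucin gene on chromosome 7. KO2 cells received another guide against MUC3A, and WT cells were the controls. Infection was at a multiplicity of 10, followed by puromycin at 2 µg/mL for 72 h. The labels name the controls as wild type and as negative control, while a scrambled virus appears in the protocol; infection and selection of WT cells were therefore not settled. Whether the edited cells were clones or pools is not given in the labels. They also do not say whether a group's libraries were grown as separate cultures, and p-values here cover the spread between libraries alone, which may be technical. The guide of each edited group is printed below to identify the groups, 5′ to 3′.
KO1 guide: gaaggcaaacttggacgtcg
KO2 guide: ttctccacactccagagacc

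HNF4A and HNF4G are nuclear receptors that bind DNA as dimers and activate the genes of absorptive enterocytes. CDX1 and CDX2 are homeodomain proteins that set the intestinal, as opposed to gastric, identity of the gut lining, and GATA6 is a zinc finger protein of crypt and enterocyte nuclei. KLF4 and KLF5 are zinc finger proteins that bind CACCC and GC-rich boxes with opposite habits in the crypt, KLF5 in proliferating cells and KLF4 in differentiated, non-dividing ones, and ELF3 is an ETS protein restricted to epithelia.

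Among the 8 factors, HNF4A, KLF4 and ELF3 carried the differences between groups described below, so their promoter windows are shown. The windows run from 250 bases before to 50 bases after the annotated start and come from RefSeq on GRCh38.p14; 6 of the 8 factors had a window in that table. Capitals mark every match to 6 short motifs. The KLF motif was CACCC, the HNF4 motif CAAAGNNCA, the motif of GATA factors AGATAA, the CDX motif TTTAT and the ETS motif AGGAAG, all searched on both strands. The TATA box, TATAAA, was searched on the printed strand. HNF4A has a pair of windows 45.5 kb apart, at its 2 known promoters, and counts per gene do not tell transcripts of the one from those of the other.
HNF4A upstream window, chr20:44355449-44355748, plus strand: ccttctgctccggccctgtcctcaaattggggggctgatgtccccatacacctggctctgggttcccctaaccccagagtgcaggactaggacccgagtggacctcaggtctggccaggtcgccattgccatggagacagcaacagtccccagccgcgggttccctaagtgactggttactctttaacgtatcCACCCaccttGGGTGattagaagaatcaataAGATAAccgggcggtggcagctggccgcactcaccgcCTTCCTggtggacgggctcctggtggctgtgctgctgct
HNF4A downstream window, chr20:44400989-44401288, plus strand: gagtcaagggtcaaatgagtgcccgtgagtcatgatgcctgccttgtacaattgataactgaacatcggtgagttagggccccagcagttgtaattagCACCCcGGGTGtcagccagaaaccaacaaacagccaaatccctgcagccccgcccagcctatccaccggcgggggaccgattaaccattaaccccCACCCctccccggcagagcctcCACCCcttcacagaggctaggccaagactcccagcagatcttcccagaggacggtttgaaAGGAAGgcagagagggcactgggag
KLF4, chr9:107489720-107490019, minus strand: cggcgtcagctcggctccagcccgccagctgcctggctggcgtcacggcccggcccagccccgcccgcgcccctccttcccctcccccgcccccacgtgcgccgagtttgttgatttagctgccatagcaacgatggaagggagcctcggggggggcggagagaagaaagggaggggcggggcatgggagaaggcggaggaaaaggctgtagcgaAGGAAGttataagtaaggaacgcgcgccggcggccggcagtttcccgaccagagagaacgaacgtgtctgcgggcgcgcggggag
ELF3, chr1:202010337-202010636, plus strand: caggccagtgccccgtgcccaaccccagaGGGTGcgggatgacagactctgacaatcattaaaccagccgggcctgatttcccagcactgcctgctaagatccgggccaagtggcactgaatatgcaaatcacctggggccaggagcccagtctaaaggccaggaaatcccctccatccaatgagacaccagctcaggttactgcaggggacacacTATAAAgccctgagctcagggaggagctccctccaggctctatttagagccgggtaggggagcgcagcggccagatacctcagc
The HNF4A upstream window held 2 KLF, 1 GATA and 1 ETS matches, and the downstream window held 4 KLF matches and 1 ETS match. The KLF4 window, with a GC content of 69% against a median of 58.7% over all 35116 windows, held 1 ETS match. The ELF3 window held 1 KLF match and a TATA box that shares 5 bases with a CDX match read on the other strand. These letters are common: of all windows, 59.9% held the KLF motif, 34.9% the CDX motif, 33.6% the ETS motif, 10.3% the GATA motif, 7.33% the TATA box and 5.28% the HNF4 motif. A match describes the letters in the window and does not show binding.

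Total counts per library ranged from 13638724 to 17830282, at which 3 counts correspond to 0.157 to 0.236 CPM (counts scaled to library size by the TMM method). Column names start with HCT in 1 library of each group and with HCT116 in the other, a difference the labels do not explain; the 3 libraries of either kind are called a set. The libraries separated by set more than by group: 63.9% of the 12679 genes tested differed between the sets. Tests of the groups therefore included a term for the set, and the fit without that term is given beside the calls of the factors and once for the other gene lists. Mitochondrial transcripts took 5.94% and 4.20% of the counts in KO1, 8.90% and 6.95% in KO2, and 5.34% and 4.84% in WT (HCT set, then HCT116 set, as in all per-library values below). MUC3A itself stood at 52.9 and 28.6 CPM in KO1, 30.04 and 24.6 CPM in KO2, and 52.7 and 25.1 CPM in WT. Its log2 fold change was 0.08 ± 0.18 (SE, n = 2 against 2) in KO1 and -0.43 ± 0.19 in KO2, with adjusted p = 0.962 and 0.237 by edgeR's quasi-likelihood test. In KO2 it was -0.77 (adjusted p = 7.62e-05) when the HCT116 library of KO2 was left out and -0.08 when its HCT library was, and in KO1 the sign turned when the HCT library of KO1 (-0.03) or the HCT116 library of WT (-0.13) was left out. Counts over the whole gene do not measure whether a guide disrupted its coding sequence.

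The cells had the general epithelial genes and little of the mature intestinal ones. EPCAM, an epithelial adhesion protein, ranged from 219 to 289 CPM over the 6 libraries, the keratin gene KRT8 from 2618 to 8139 CPM, and the E-cadherin gene CDH1 from 61.0 to 184 CPM. Defining genes of intestinal enterocytes were near 0: the intestinal cadherin gene CDH17 had 0 to 7 reads per library, the brush-border gene VIL1 had 0 to 3 and the intestinal antigen gene GPA33 had 1 to 11. Of 39 enterocyte and colonocyte genes with a row in the tables, 23 stayed under 1 CPM in all 6 libraries and 35 stayed under 10 CPM.

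Set side by side per length, as CPM per kilobase of annotated exon, the 8 factors ran from near 0 for CDX1 to the level of ELF3. In WT, mean levels per kilobase were 24.2 CPM for ELF3, 17.2 for KLF5, 8.44 for KLF4, 6.94 for CDX2, 3.76 for GATA6, 0.785 for HNF4A, 0.387 for HNF4G and 0.0185 for CDX1 (n = 2). ELF3 was above KLF5 in both WT libraries, at 27.1 and 21.3 CPM per kilobase for ELF3 and 24.6 and 9.88 for KLF5. Across the sets their ranges overlapped. KLF4 and CDX2 changed places between the libraries, at 11.8 and 5.05 CPM per kilobase for KLF4 and 4.83 and 9.05 for CDX2. GATA6, at 4.77 and 2.75, lay below both in each library, and was close only to CDX2 in the HCT library. HNF4A, at 0.881 and 0.689 CPM per kilobase, was below GATA6 and above HNF4G, at 0.447 and 0.327, in both WT libraries. The low end therefore held both HNF4 genes and CDX1, and the high end the epithelial ETS factor with a KLF.

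**Figure D1:**
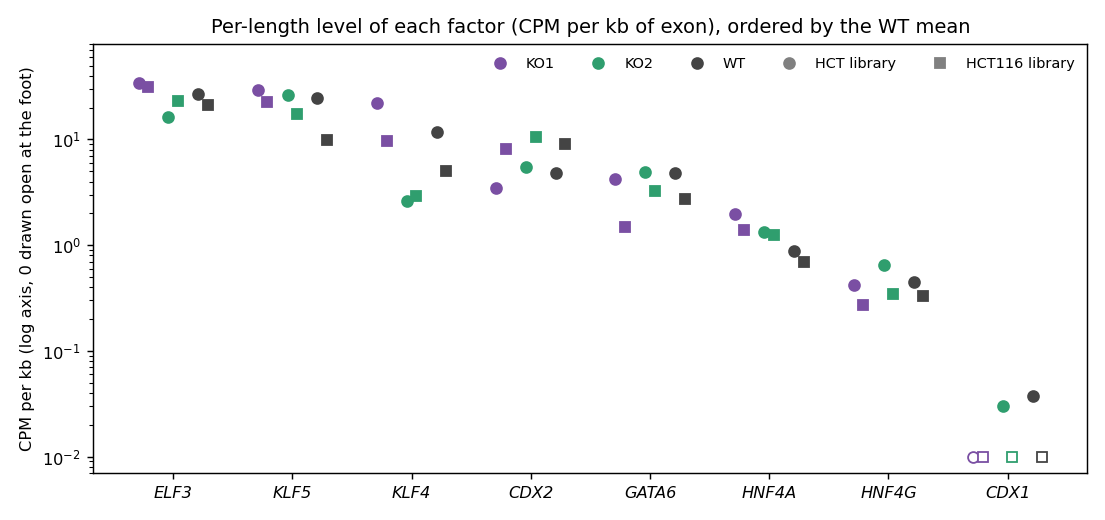
CPM per kilobase of annotated exon for the 8 factors in each of the 6 libraries, on a logarithmic axis with values of 0 drawn as open markers at the foot; colours give the group (KO1, KO2, WT from left to right) and marker shapes the set. ELF3 and KLF5 lay highest and CDX1 lowest in WT, and the KO2 points of KLF4 (2.63 and 2.89 CPM per kilobase) lay below its KO1 and WT points.

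CDX1 was not detected at a usable depth. It had 0 and 0 reads in KO1, 1 and 0 reads in KO2, and 1 and 0 reads in WT, all under 3 counts, and it was left out of the tests by the filter on low counts; no fold is given. The other 7 factors passed the filter.

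With the first guide, HNF4A was the factor that rose. It had 14.5 and 10.2 CPM in KO1 (216 and 132 reads), against 6.44 and 5.03 CPM in WT (99 and 64 reads), so both KO1 libraries lay above both WT libraries. The log2 fold change was 1.10 ± 0.23 (SE, n = 2 against 2; 2.14-fold), with adjusted p = 0.0499 by edgeR with the set term, just under the threshold of 0.05; the 95% interval ran from 0.60 to 1.60. Within each set the log2 ratio of KO1 to WT was 1.15 and 1.0. The call ended in the fit without the set term, where the log2 fold change was also 1.10 but adjusted p = 1 (unadjusted p = 0.0207) and 0% of all genes tested passed, and when any 1 of the 4 KO1 and WT libraries was left out, with log2 fold changes of 0.94 to 1.22 and adjusted p = 0.0773 to 0.532. With mitochondrial transcripts left out adjusted p was 0.0571. Thus 1 of the 7 tested factors rose in KO1 and 0 fell, while over all genes tested 0.678% rose and 0.347% fell.

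KLF4, KLF5 and ELF3 all had higher fitted levels in KO1 but did not pass. KLF4 stood at 80.5 and 35.1 CPM in KO1, against 43.3 and 18.5 CPM in WT; within each set KO1 was higher, by log2 ratios of 0.89 and 0.92, though the groups overlapped because the sets lay far apart. Its log2 fold change was 0.90 ± 0.26 (SE, n = 2 against 2), with adjusted p = 0.173 by edgeR. KLF5, the proliferation-linked partner of KLF4, had 113 and 87.8 CPM in KO1 and 95.7 and 38.5 CPM in WT, and most of its difference lay in the HCT116 set, with a log2 ratio of 1.19 there and 0.24 in the HCT set (adjusted p = 0.159 by edgeR). ELF3 had 247 and 224 CPM in KO1 and 195 and 153 CPM in WT, so its groups did not overlap, but the log2 fold change of 0.44 ± 0.17 had adjusted p = 0.443 by edgeR. HNF4A and ELF3 were thus the 2 factors with both KO1 libraries above both WT libraries, beside 6.86% of all genes tested above and 5.71% below.

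Whether KLF4, KLF5 and ELF3 passed in KO1 depended on which libraries were in the fit. When either KO2 library was left out, HNF4A, KLF4, KLF5 and ELF3 passed in KO1, but so did far more of all genes tested than in the main fit. The log2 fold changes were 0.91 and 0.89 for KLF4, 0.69 and 0.67 for KLF5, and 0.45 and 0.43 for ELF3. In each pair the first value is without the HCT library of KO2 and the other without its HCT116 library. KLF4 also passed without the HCT116 library of KO1 (1.16, adjusted p = 0.0119 by edgeR) and without the HCT library of WT (1.26, adjusted p = 0.0135), and KLF5 without the HCT library of WT (1.13, adjusted p = 0.000581). Other fits gave lower estimates, none past the threshold: leaving out the HCT116 library of WT gave 0.64 for KLF4, 0.30 for KLF5 and 0.20 for ELF3. Leaving out the HCT library of KO1 gave 0.56 for KLF4, and leaving out its HCT116 library gave 0.40 for KLF5. KLF4 and KLF5 passed as well with no filter on low counts, where 312 genes in all passed, against 130 in the main fit.

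The 3 remaining factors had fitted levels below WT in KO1, with none past the threshold. CDX2 had 14.4 and 33.2 CPM in KO1 and 19.9 and 37.3 CPM in WT, a log2 fold change of -0.31 ± 0.16 (adjusted p = 0.663 by edgeR). GATA6 had 16.6 and 5.87 CPM in KO1 and 18.8 and 10.9 CPM in WT, and its log2 ratio was -0.18 within the HCT set and -0.87 within the other (-0.47 ± 0.23, adjusted p = 0.640 by edgeR). In both genes the 2 groups overlapped because the sets differed more than the groups did. HNF4G rested on 30 and 17 reads in KO1 and 33 and 20 reads in WT, and the 95% interval of its log2 fold change ran from -1.07 to 0.73, so at this depth neither direction was resolved (adjusted p = 0.968 by edgeR). Over the 7 factors the median log2 fold change in KO1 was 0.44, beside 0.0012 over all genes tested, and each of the 7 had the same sign in both sets. The share of all genes that kept their sign was not computed, so the signs are a description only.

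With the other guide, KLF4 fell. It had 9.63 and 10.6 CPM in KO2 (184 and 153 reads), against 43.3 and 18.5 CPM in WT (665 and 235 reads). Both KO2 libraries lay below both WT libraries and close to each other, whereas the WT libraries of the 2 sets lay far apart. The log2 fold change was -1.49 ± 0.28 (SE, n = 2 against 2; 2.82-fold lower), with adjusted p = 0.0125 by edgeR with the set term; without that term it was -1.61 ± 0.57 with adjusted p = 0.99999. The log2 ratio within the HCT set was -2.15, and within the HCT116 set -0.80. Leaving out the HCT library of KO2 gave -0.82, leaving out its HCT116 library gave -2.16, and KLF4 passed in each of the 6 fits that left out 1 library. With mitochondrial transcripts left out, which took a larger share in KO2, the call also held. In the authors' deposited table the log2 fold change of KLF4 was -1.65 with p = 0.00279 and adjusted p = 0.604. The authors' value for HNF4A in KO1 was 1.09 with p = 0.0681 and adjusted p = 0.999994. None of the factors passed in the authors' comparisons with WT. Of the 7 tested factors 1 fell and 0 rose in KO2, beside 2.47% and 2.15% of all genes tested.

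**Figure D2:**
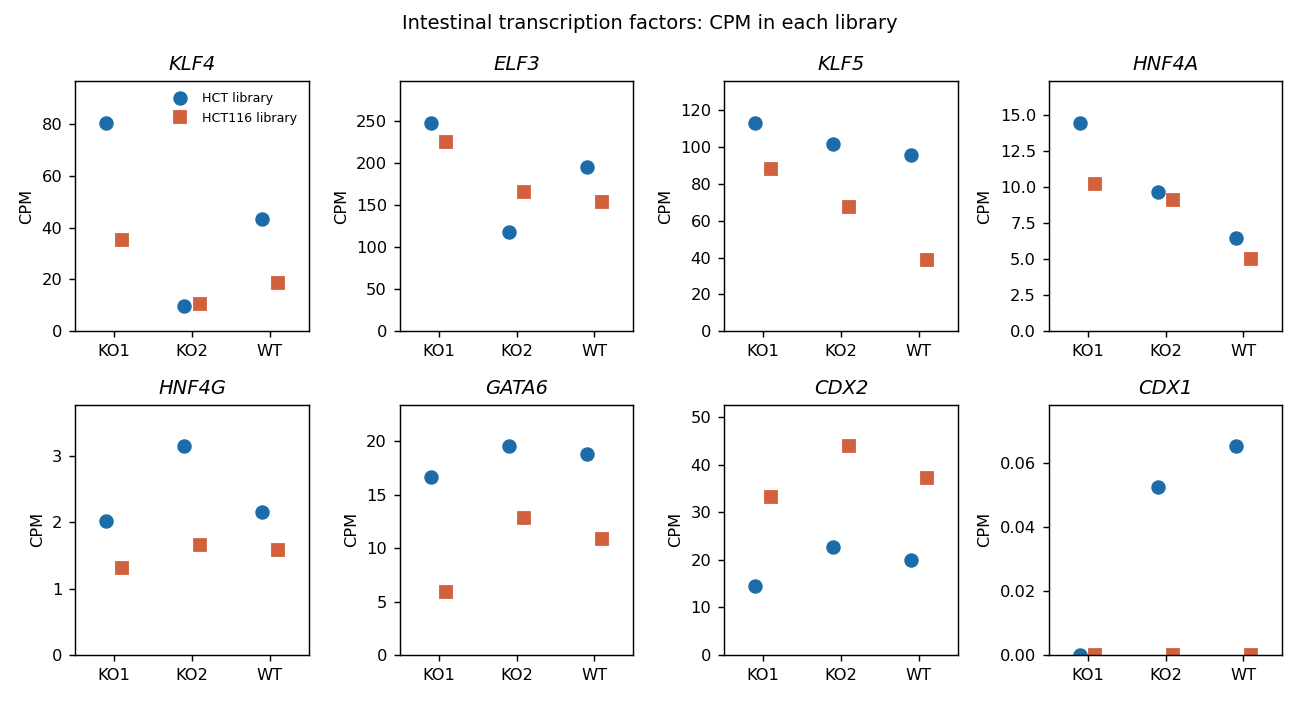
CPM of each factor by group (KO1, KO2, WT from left to right), one panel per factor with its own linear axis from 0; marker shapes and colours give the set. KLF4 had its lowest points in KO2 in both sets, and HNF4A had its lowest points in WT in both sets.

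HNF4A was again above WT in both libraries, without passing. It had 9.68 and 9.12 CPM in KO2 and 6.44 and 5.03 CPM in WT, and the log2 fold change was 0.72 ± 0.23 (SE, n = 2 against 2; 1.64-fold) with adjusted p = 0.110 by edgeR; without the HCT library of KO2 it was 0.90 and passed (adjusted p = 0.0199). HNF4A above and KLF4 below were the 2 factors whose KO2 and WT libraries did not overlap, beside 11.9% and 8.48% of all genes tested in the same directions. The comparisons of KO1 and of KO2 with WT share the WT libraries, so the 2 values of HNF4A are not independent of each other.

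ELF3 went apart between the sets in KO2. It had 117 and 165 CPM in KO2, against 195 and 153 CPM in WT, which is a log2 ratio of -0.73 within the HCT set and 0.11 within the other. The fitted log2 fold change of -0.30 ± 0.17 (SE, n = 2 against 2) had adjusted p = 0.383 by edgeR; with the HCT library of KO2 left out it was 0.06, and with its HCT116 library left out it was -0.68 (adjusted p = 3.27e-05). A difference between sets in the effect of a guide could not be tested, since each group had 1 library per set. KLF5 had 102 and 67.2 CPM in KO2 and 95.7 and 38.5 CPM in WT, again with the larger log2 ratio in the HCT116 set (0.80, against 0.08 in the HCT set; adjusted p = 0.272 by edgeR). It passed with the HCT library of KO2 left out (0.52, adjusted p = 0.00679) and without the HCT library of WT (0.86, adjusted p = 0.0106).

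CDX2, GATA6 and HNF4G had fitted levels above WT in KO2, with none past the threshold. CDX2 had 22.7 and 43.9 CPM in KO2 and 19.9 and 37.3 CPM in WT (log2 fold change 0.21 ± 0.15, adjusted p = 0.505 by edgeR). GATA6 had 19.5 and 12.9 CPM in KO2 and 18.8 and 10.9 CPM in WT (0.15 ± 0.23, adjusted p = 0.774 by edgeR). HNF4G had 60 and 24 reads in KO2 and 33 and 20 reads in WT (0.35 ± 0.39, adjusted p = 0.687 by edgeR), with a 95% interval of -0.51 to 1.2 that left the direction unresolved. The sign of each of these differences was the same in both sets, but none was larger than the spread allowed a call. The median over the 7 factors was 0.21, beside -0.000105 over all genes tested.

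**Figure D3:**
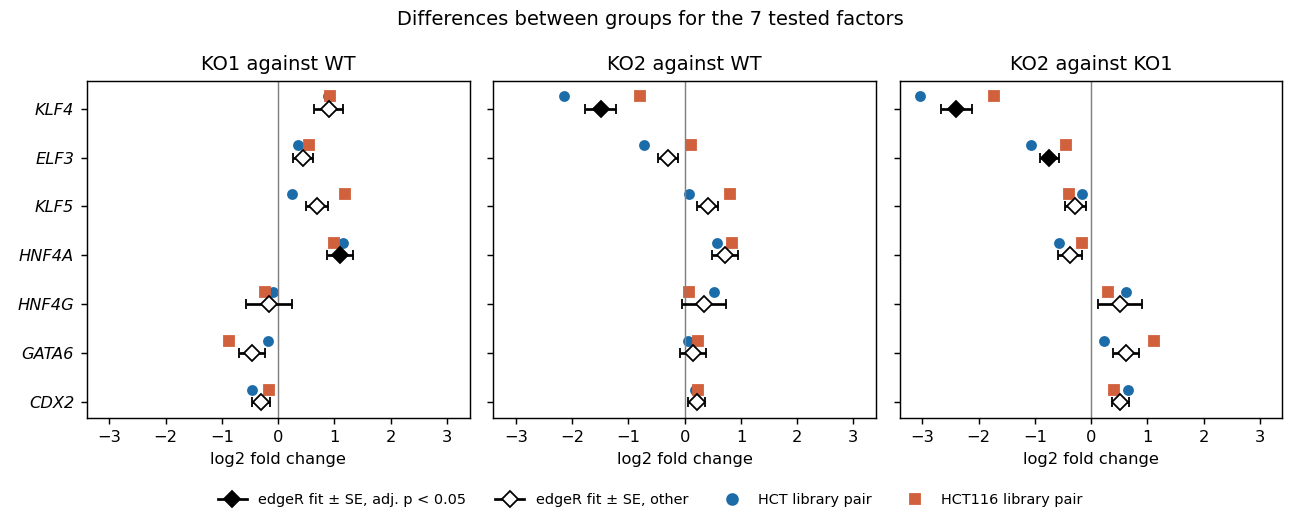
Log2 fold change of the 7 tested factors in KO1 against WT, KO2 against WT and KO2 against KO1, as diamonds with bars of 1 SE from the edgeR fit with the set term, filled where the adjusted p was under 0.05; the small markers are the log2 ratios within each set. KLF4 lay at 0.90 in KO1 and -1.49 in KO2, and HNF4A lay above 0 in both.

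KO2 was then set against KO1, which tests whether the guides differed in a factor. KLF4 and ELF3 were lower in KO2 by this test. KLF4 had 9.63 and 10.6 CPM in KO2, against 80.5 and 35.1 CPM in KO1, a log2 fold change of -2.40 ± 0.28 (SE, n = 2 against 2; 5.26-fold lower) with adjusted p = 0.000345 by edgeR with the set term. The log2 ratio was -3.05 within the HCT set and -1.72 within the other, and no KO2 library reached the lowest KO1 library. The difference passed in each fit that left out 1 library, and was -1.72 with the HCT library of KO2 left out and -3.05 with its HCT116 library left out; without the set term adjusted p was 0.542 (unadjusted p = 0.00571).

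ELF3 had 117 and 165 CPM in KO2, against 247 and 224 CPM in KO1, and the libraries of the 2 groups did not overlap. The log2 fold change was -0.74 ± 0.17 (SE, n = 2 against 2; 1.67-fold lower), with adjusted p = 0.0217 by edgeR with the set term. Without the set term the log2 fold change was also -0.74, with adjusted p = 0.999817. It was -0.39 (adjusted p = 0.0221 by edgeR) with the HCT library of KO2 left out and -1.11 with its HCT116 library left out, and the call ended without the HCT library of KO1 (-0.64, adjusted p = 0.225). KLF4 and ELF3 made 2 of 7 tested factors lower and 0 higher in KO2, where 5.39% of all genes tested were lower and 4.27% higher; with HNF4A they were the 3 factors with both KO2 libraries below both KO1 libraries, as were 11.5% of all genes tested, with 0 factors the other way beside 13.3%.

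CDX2 and GATA6 lay the other way without passing. CDX2 had 22.7 and 43.9 CPM in KO2 and 14.4 and 33.2 CPM in KO1, with a log2 fold change of 0.52 ± 0.16 (SE, n = 2 against 2) and adjusted p = 0.0619 by edgeR. It passed with upper quartile scaling (adjusted p = 0.0465 by edgeR), with no filter on low counts (0.0419), and without the HCT (0.0390) or the HCT116 (0.00770) library of KO2. GATA6 had 19.5 and 12.9 CPM in KO2 and 16.6 and 5.87 CPM in KO1, with adjusted p = 0.122 by edgeR, and passed with the HCT library of KO2 left out (0.89, adjusted p = 0.00549). HNF4A (-0.38 ± 0.22), HNF4G (0.51 ± 0.39) and KLF5 (-0.28 ± 0.19) had adjusted p = 0.313, 0.458 and 0.393 by edgeR; KLF5 was -0.37 with adjusted p = 0.0390 when the HCT116 library of KO2 was left out, and 0.02 when that of KO1 was.

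CDX2, GATA6, KLF4 and KLF5 differed between the sets. CDX2 had 33.2, 43.9 and 37.3 CPM in the HCT116 libraries of KO1, KO2 and WT, against 14.4, 22.7 and 19.9 CPM in the HCT libraries, so the sets did not overlap. It was 2.02-fold higher in the HCT116 set (log2 difference 1.02 ± 0.13, adjusted p = 4.70e-05 by edgeR). GATA6 was 1.91-fold lower in the HCT116 set (-0.94 ± 0.19, adjusted p = 0.00113), KLF4 1.78-fold lower (-0.83 ± 0.22, adjusted p = 0.00639) and KLF5 1.68-fold lower (-0.75 ± 0.16, adjusted p = 0.00139), each by edgeR with 3 libraries against 3. HNF4A, HNF4G and ELF3 did not pass (adjusted p = 0.154, 0.0915 and 0.999 by edgeR). So 1 of 7 factors was higher and 3 were lower in the HCT116 set, beside 31.8% and 32.1% of all genes tested, a share of differing genes near the background.

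KLF4 and ELF3 were the 2 of the 7 factors whose set ratio did not keep its sign in all 3 groups. The log2 ratio of the HCT116 to the HCT library of KLF4 was -1.19 in KO1, 0.13 in KO2 and -1.22 in WT. For ELF3 it was -0.14 in KO1, 0.50 in KO2 and -0.35 in WT. In both genes KO2 was the group that stood apart, with the KLF4 level nearly equal in its libraries. The KLF4 set difference did not pass without the HCT library of KO1 (-0.59, adjusted p = 0.0732 by edgeR), and that of ELF3 passed, at -0.24 with adjusted p = 0.0200, without the HCT library of KO2.

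**Figure D4:**
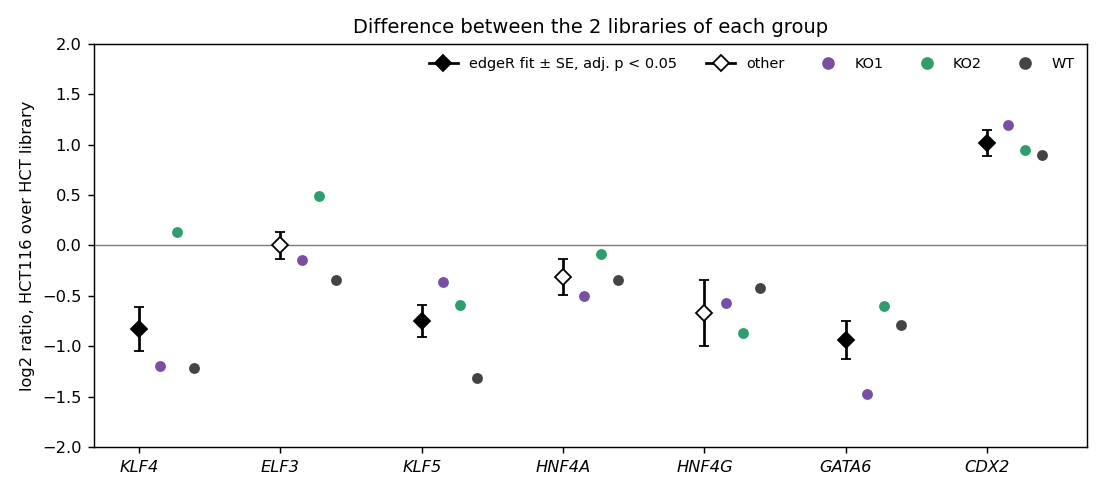
Log2 ratio of the HCT116 library to the HCT library for the 7 tested factors in KO1, KO2 and WT. Each circle is 1 pair of libraries without an error. Diamonds with bars of 1 SE are the set difference from the edgeR fit over the 6 libraries, filled where the adjusted p was under 0.05. By the circles, CDX2 lay above 0 in all 3 groups, GATA6, KLF5, HNF4A and HNF4G below 0 in all 3, and KLF4 and ELF3 above 0 in KO2 only.

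The profiles of the factors over the 6 libraries, centred within set, are given as a description of 6 points that share 3 groups. KLF4 and ELF3 moved together (Pearson r = 0.950), and KLF4 ran opposite to HNF4G (-0.982) and CDX2 (-0.913). The HNF4G profile rests on 17 to 60 reads per library, and its direction was not resolved in any comparison of the groups. HNF4A was most like KLF5 (0.801) among the factors. Of 11405 genes searched, the profile most like that of HNF4A was PTK6, a non-receptor tyrosine kinase gene of epithelia (r = 0.998), with log2 fold changes of 0.76 in KO1 and 0.49 in KO2, followed by GLT8D1 (0.995) and DRAM2 (0.990). For KLF4 they were KDM1B, a histone demethylase gene, SLC6A6, the taurine transporter gene, and BACE2, a protease gene (0.999, 0.998 and 0.998). For ELF3 they were CAMK2G, a calmodulin-dependent kinase gene, BACH1, a heme-responsive repressor gene, and RAB11FIP1, a vesicle traffic gene (0.999, 0.998 and 0.998). Picking the highest r among 11405 genes over so few points yields high values by selection. Shared regulation of these genes with the factors was not tested.

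Other transcription factors of the intestine were taken from a list of 48 genes, of which 30 were tested. In KO1 1 rose and 1 fell, beside 0.678% and 0.347% of all genes tested. In KO2 1 rose and 3 fell, beside 2.15% and 2.47%. TBX3, a T-box repressor gene, had 32.4 and 42.04 CPM in KO1 and 15.2 and 15.02 CPM in WT (log2 fold change 1.28 ± 0.17, adjusted p = 0.00334 by edgeR).

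PPARG, a lipid-sensing nuclear receptor gene, rose to 47.0 and 55.7 CPM in KO2, against 31.8 and 27.5 CPM in WT (0.80 ± 0.16, adjusted p = 0.0198 by edgeR), a call that ended without the HCT116 library of WT (adjusted p = 0.121). Among the genes that fell in KO2, named after its values were seen, was MYB, a proliferation-linked factor gene of the crypt, with 3.25 and 2.35 CPM in KO2 and 6.25 and 7.32 CPM in WT (-1.29 ± 0.32, adjusted p = 0.0461 by edgeR); its call ended without the HCT116 library of WT (-0.87, adjusted p = 0.447). Over this list the median log2 fold change was -0.12 in KO1 and -0.11 in KO2.

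Within the KLF family, KLF2 followed the pattern of KLF4. Of 15 other KLF genes 13 were tested: in KO1 0 rose and 0 fell, in KO2 0 rose and 1 fell, and the list's medians were 0.35 in KO1 and -0.33 in KO2. The shares over all genes tested were 0.678% higher and 0.347% lower in KO1, and 2.15% higher and 2.47% lower in KO2. KLF2, known as a brake on proliferation in endothelium and T cells, had 83.6 and 115 CPM in KO2 and 216 and 191 CPM in WT (-1.04 ± 0.16, adjusted p = 0.00380 by edgeR). In KO1 it had 354 and 325 CPM, a log2 fold change of 0.74 against WT that did not pass (adjusted p = 0.0525 by edgeR), and KO2 was lower than KO1 by -1.78 on the log2 scale (adjusted p = 5.85e-05, and 0.348 without the set term). Of 10 tested ETS, grainyhead and OVOL factors of epithelia beyond ELF3, 0 rose and 0 fell in KO1 and in KO2, with medians of -0.09 and -0.11.

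Among 16 tested genes of enterocyte and colonocyte differentiation, 1 rose in KO1 and 2 fell in KO2, beside 0.678% and 2.47% of all genes tested. EPS8L3, an actin regulator gene, had 4.15 and 6.57 CPM in KO1 and 0.846 and 0.393 CPM in WT (3.05 ± 0.50, adjusted p = 0.0158 by edgeR); the call ended without the HCT116 library of KO1 (2.34, adjusted p = 0.127) or of WT (2.47, adjusted p = 0.0939), and the value was 3.92 and 3.87 without their HCT libraries. CA2, the carbonic anhydrase gene of colonocytes, fell to 21.7 and 14.4 CPM in KO2, against 37.4 and 29.03 CPM in WT (-0.89 ± 0.15, adjusted p = 0.00758 by edgeR). HKDC1, a hexokinase-domain gene, fell to 1.26 and 1.18 CPM in KO2, against 4.17 and 2.99 CPM in WT (-1.55 ± 0.38, adjusted p = 0.0433 by edgeR), and lost the call without either WT library, the HCT library of KO1 or the HCT library of KO2. The medians of this list were 0.01 in KO1 and -0.15 in KO2.

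Of 28 tested genes of epithelial identity, 1 rose in KO1, beside 0.678% of all genes tested. In KO2 0 changed, beside 2.15% higher and 2.47% lower. In KO2 against KO1, where KLF4 and ELF3 were lower, 1 gene of this list was higher and 6 were lower, beside 4.27% and 5.39% of all genes tested; those given here are named after their values were seen. Among the lower ones were the simple-epithelial keratin genes KRT8, KRT18 and KRT19, the membrane protease gene PRSS8 and CDH1, and the higher one was the tight junction gene CLDN3. KRT19 had 1398 and 2475 CPM in KO2, against 2673 and 3370 CPM in KO1 (-0.68 ± 0.17, adjusted p = 0.0275 by edgeR). KRT8, KRT18, KRT19, PRSS8, CDH1 and CLDN3 each lost the call without at least 1 KO1 library, and none of these 6 passed in the fit without the set term. The list's medians against WT were 0.03 and 0.02. Other lists also had calls in KO2 against KO1. Of the 16 tested enterocyte and colonocyte genes 0 were higher and 4 lower, and of the 30 other intestinal factors 1 was higher and 3 lower. Of the 13 other KLF genes 0 were higher and 2 lower, and of 13 crypt stem cell genes 1 was higher and 0 lower. The 10 ETS, grainyhead and OVOL factors had 0 calls either way.

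Of 13 tested crypt stem cell genes, 1 fell in KO1, and 1 rose and 3 fell in KO2, with medians of -0.04 and -0.25. Over all genes tested 0.347% fell in KO1, and 2.15% rose and 2.47% fell in KO2. RNF43, the ubiquitin ligase gene that restrains Wnt receptors, fell in both: 19.0 and 29.6 CPM in KO1, 27.2 and 35.4 CPM in KO2, and 44.8 and 67.6 CPM in WT, with adjusted p = 0.00212 in KO1 and 0.00828 in KO2 by edgeR. The KO2 call of RNF43 ended without the HCT116 library of WT (-0.78, adjusted p = 0.0714). BMI1, a Polycomb gene, had 33.1 and 21.1 CPM in KO2 and 50.05 and 40.3 CPM in WT (-0.77 ± 0.16, adjusted p = 0.0229 by edgeR), a call that ended without the HCT116 library of WT (-0.54, adjusted p = 0.296). AXIN2, a Wnt target gene, rose in KO2, to 79.6 and 67.09 CPM, against 30.7 and 52.9 CPM in WT (0.88 ± 0.22, adjusted p = 0.0429 by edgeR), but not when the HCT library of KO2 (0.37, adjusted p = 0.100) or of WT was left out (0.58, adjusted p = 0.236). EPHB2, an ephrin receptor gene of the crypt base and the third gene that fell, was named after its values were seen: it had 62.0 and 41.8 CPM in KO2 and 86.4 and 64.2 CPM in WT (-0.55 ± 0.13, adjusted p = 0.0429 by edgeR), a call that ended without either WT library or the HCT library of KO1. The genes named from these lists all lost their calls against WT in the edgeR fit without the set term, with adjusted p = 1 in KO1 and 0.99999 in KO2, as did the squamous and gastric genes named below.

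Markers of other epithelia and of non-epithelial cells were measured beside the factors. As background, 0.678% of all genes tested rose and 0.347% fell in KO1, and 2.15% rose and 2.47% fell in KO2. Stratified squamous genes had the most calls of the marker lists against WT: of 10 tested, 3 rose and 1 fell in KO1 and 4 rose and 0 fell in KO2, with median log2 fold changes of 1.89 and 1.79, and the summed level of the 14 listed genes was 707 and 1096 CPM in KO1, 656 and 897 CPM in KO2, and 562 and 613 CPM in WT. KRT13, a keratin gene of stratified mucosa, had 19.6 and 146 CPM in KO1 and 2.47 and 4.40 CPM in WT (18.6-fold, adjusted p = 0.000977 by edgeR), with log2 fold changes of 3.02 without the HCT116 library of KO1 and 3.51 without that of WT, against 4.22 with all. The third riser in KO1, named after its values were seen, was SFN, the 14-3-3 sigma gene. It had 214 and 571 CPM in KO1 and 149 and 348 CPM in WT (0.62 ± 0.12, adjusted p = 0.0407 by edgeR). That call ended without either KO1 library or the HCT116 library of WT. In KO2 SFN had 179 and 498 CPM and was not called against WT. SFN alone made up most of the summed squamous level in each HCT116 library. KRT13 also rose in KO2, to 9.26 and 18.4 CPM (2.07 ± 0.45, adjusted p = 0.0244 by edgeR), a call that ended with DESeq2 (adjusted p = 0.135) and with limma-voom (0.0526), both with the set term. Its value there was 1.49 with the HCT library of KO2 left out, 2.96 with its HCT116 library left out and 1.42 with the HCT116 library of WT left out. KRT5, a basal-cell keratin gene, had 4.76 and 6.29 CPM in KO2 and 0.325 and 0.315 CPM in WT (16.9-fold, adjusted p = 0.00234 by edgeR). The desmocollin gene DSC3 went opposite ways, at 3.28 and 1.16 CPM in KO1, 50.5 and 35.2 CPM in KO2 and 14.3 and 11.3 CPM in WT, with adjusted p = 0.00102 in KO1 and 0.00103 in KO2 by edgeR. TRIM29, an epithelial tripartite-motif gene, had 5.90 and 8.97 CPM in KO1, 4.45 and 5.60 CPM in KO2 and 1.76 and 0.944 CPM in WT (adjusted p = 0.0119 and 0.0207 by edgeR), and both calls ended without the HCT116 library of WT (adjusted p = 0.0736 and 0.201).

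The remaining marker lists were low. Gastric genes summed to 15.9 and 27.7 CPM in KO1, 7.22 and 8.91 CPM in KO2 and 7.09 and 5.43 CPM in WT; the 1 tested gene, ANXA10, an annexin gene of stomach, rose in KO1, to 15.4 and 26.7 CPM, against 5.27 and 5.03 CPM in WT (adjusted p = 0.00253 by edgeR). Summed goblet, Paneth and enteroendocrine genes reached at most 2.71 CPM in any library, and hepatocyte genes 13.7 CPM. Leukocyte genes summed to 21.4 and 20.2 CPM in KO1, 6.28 and 13.5 CPM in KO2 and 9.31 and 9.68 CPM in WT, HEK293T lineage genes to 28.5 to 81.3 CPM over the 6 libraries and fibroblast genes to 35.4 to 67.7 CPM. None of the goblet, hepatocyte, leukocyte, HEK293T or fibroblast genes tested, 1 or 2 in each list, passed in KO1 or KO2 against WT. In KO2 against KO1, where KLF4 and ELF3 were lower, several of these markers passed, named here after their values were seen. Over all genes tested 4.27% were higher and 5.39% lower in this comparison. Of 10 tested squamous genes 2 were higher and 1 lower, and of 2 HEK293T genes 1 was higher and 1 lower. The 1 gastric gene was lower, as was 1 of 2 hepatocyte and 1 of 2 leukocyte genes. None of the goblet (1 tested) or fibroblast (2 tested) genes passed. Lower in KO2 were ANXA10 (-1.50, adjusted p = 0.00227 by edgeR), SERPINA1, the alpha-1-antitrypsin gene of the hepatocyte list (-2.09, adjusted p = 0.00222), VGF, a neuropeptide precursor gene of the HEK293T list (-1.70, adjusted p = 0.0214), CD68, a macrophage gene of the leukocyte list (-1.25, adjusted p = 0.0248), and KRT13 (-2.15, adjusted p = 0.00399). Higher in KO2 were DSC3 (4.28, adjusted p = 3.45e-06 by edgeR), KRT5 (1.79, adjusted p = 0.0256) and PAX2, a paired-box factor gene of the HEK293T list (0.70, adjusted p = 0.0362). The calls of VGF, CD68, KRT5 and PAX2 ended without the HCT library of KO1. Those of CD68, KRT5 and PAX2 also ended without the HCT library of KO2, at -0.63, 1.32 and 0.47. The PAX2 call ended as well without the HCT116 library of KO1 (0.85) and by DESeq2 with the set term (adjusted p = 0.0518). In the edgeR fit without the set term none of these 8 genes passed (adjusted p = 0.348 for DSC3). The summed squamous and gastric genes lay above WT in both edited groups, and the leukocyte sum above WT in KO1. In KO2 the gastric sum was little above WT in the HCT set (7.22 against 7.09 CPM). ANXA10 alone made up most of the gastric sum in KO1. CD68 alone, at 19.03 and 17.5 CPM in KO1, made up most of the leukocyte sum, and it did not pass against WT. The part of these markers in the differences of HNF4A, KLF4 and ELF3 was not tested. In these bulk libraries, fewer cells expressing a gene and less RNA per cell cannot be told apart.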

How the data were processed

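Poly(A) RNA was sequenced from 6 libraries of HCT116 cells in 3 groups of 2, per the labels' protocols. The values used are the authors' read counts by gene symbol, raw per the file headers, and, from the authors' deposited comparison of each guide with WT, a log2 fold change and p-values. STAR, HTSeq 0.6.0, DESeq2 and hg18 appear in the submitters' processing notes without a stated role. The sources used here do not give strand use in counting, and antisense genes are annotated over HNF4A, GATA6 and ELF3, so reads from either strand there cannot be told apart. The 40 other columns of per-sample values, among them the per-length values the design had named, were not used; lengths came instead from the union of annotated exons in GENCODE v29 (GRCh38), which may not be the annotation of the counts, and the order of factors depends on it.

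The tables have 15284 genes in common. Another 264 genes are in the KO1 table alone and 429 in the KO2 table alone, with 0 WT reads, and were joined with 0 for the other guide. Tests ran in edgeR 4.0.16 under R 4.3.3: TMM scaling, filterByExpr (at least 10 counts), then glmQLFit and glmQLFTest over the 6 libraries with group and set as terms. This leaves 2 residual degrees of freedom, or 3 without the set. Benjamini-Hochberg adjustment covered 12679 genes at 0.05. The SE is the size of a log2 fold change over the root of its F statistic. CPM use TMM-scaled library sizes, and ratios within a set a prior count of 2. The code was tested on simulated data.

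The set is the prefix of the deposited column names, which carry no replicate number, so the labels' numbers could not be assigned. Differences between the sets correlated across genes at 0.783 for KO1 with KO2, 0.867 for KO1 with WT and 0.815 for KO2 with WT, and the set was kept as a pairing block. Between the libraries of one group chi-square was 95.5 to 149 times its degrees of freedom, so none was a copy of the other library of its group. Libraries of different groups were not compared in this way.

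The factors, lists, tests and the set term were chosen with earlier results of these data known. Named genes are the 8 factors, up to 3 called genes per list and comparison with WT by smallest p, the 3 genes most correlated with each called factor, and MUC3A; others are marked where named, and some that the rule names are not reported here. The alternatives were no replicate block, DESeq2 1.42.0 and limma 3.58.1, other scaling and filters, mitochondrial transcripts left out, genes of both tables only, the libraries of the pair only, and each library left out.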

Additional observations from a re-analysis of the deposited data

Results flagged for a closer look

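KLF4 and ELF3 each differed between the guides by a test of the difference itself. In KO2 against KO1 the log2 fold change of KLF4 was -2.40, with 9.63 and 10.6 CPM in KO2 and 80.5 and 35.1 CPM in KO1, and that of ELF3 was -0.74, with 117 and 165 CPM in KO2 and 247 and 224 CPM in KO1 (adjusted p = 0.000345 and 0.0217 by edgeR with the set term). The share of mitochondrial counts was 8.90% and 6.95% in KO2 and 5.94% and 4.20% in KO1, and both differences also passed with those transcripts left out.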

How the results depend on the processing

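The calls rested on the term for the set. With no replicate block, 0 factors passed for KO1 over WT, 0 for KO2 over WT and 0 for KO2 over KO1, against 1, 1 and 2 with the block; over all genes edgeR then called 0 in each, with 173, 310 and 515 genes at an unadjusted p under 0.05. DESeq2 with no replicate block called 0, 0 and 1 factors (KLF4, adjusted p = 0.00378) and 16, 44 and 119 genes in all, against 130, 586 and 1225 by edgeR with the block. In KO1 against WT the count of factors was also 0 with mitochondrial transcripts left out, 3 with no filter on low counts and 4 with the libraries of the pair only, and all genes called were 312 with no filter, 205 by DESeq2 with the replicate block and 879 with the libraries of the pair; in KO2 against WT they were 938 with no filter. Leaving out 1 library gave 0 to 4 factors for KO1 over WT, 1 to 3 for KO2 over WT and 1 to 4 for KO2 over KO1, with 69 to 901, 318 to 2171 and 392 to 3203 genes in all. A group left with 1 library borrowed its spread from the other groups. The log2 difference of ELF3 between the sets was 0.000253 with all 6 libraries and -0.24 to 0.18 with 1 left out, the lowest with the HCT library of KO2 left out (adjusted p = 0.0200 by edgeR). The causes were not tested. KLF4 in KO2 passed under 15 of 17 alternatives against WT and 16 of 17 against KO1, ELF3 in KO2 against KO1 under 14 of 17, and HNF4A in KO1 under 10 of 17. HNF4G and CDX1 are limited by depth.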
